A study of Homo sapiens with 12 samples.

Results

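Keratins are the proteins that form the intermediate filaments of epithelial cells. A type I (acidic) keratin pairs with a type II (neutral to basic) keratin, and each kind of epithelium is known for the pairs it makes: KRT8 with KRT18 in simple epithelium, KRT5 with KRT14 in basal cells, and KRT6 isoforms with KRT16 in stressed or wounded stratified epithelium. The family was followed here in 2 human lung epithelial lines given an extract of poultry dust. All probes whose annotated symbol is KRT followed by a number, with or without 1 letter, were taken, which gave 58 of the 47320 probes on the array and 49 of its 20045 genes with a symbol. Of these genes, 28 encode type I keratins (27 on chromosome 17, and KRT18 on chromosome 12) and 21 encode type II keratins, all on chromosome 12. RefSeq lists 55 protein-coding genes with such a symbol, and 6 of them, KRT6A, KRT6B, KRT17, KRT81, KRT82 and KRT86, had no probe under their symbol and were not analysed here.

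BEAS-2B is a line from bronchial epithelium immortalised with viral genes, and A549 comes from an adenocarcinoma of the lung. Cells of each line had been without serum overnight in every group. The controls then received medium alone, and the treated groups 1 h or 6 h of dust extract at 0.25%. Illumina bead arrays were used, 2 per group (numbered 1 and 2) for 6 groups, and all 12 lay on 1 chip. The labels give no time for the controls, so each control was the same for both dust times, and they do not say whether numbers 1 and 2 are separate cultures. The p-values therefore rest on how far same-group arrays differ, which may be technical.

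Levels are log2 signals after background correction and quantile normalization, and a probe was called detected on an array where its detection p-value was under 0.05. Between 17730 and 19453 probes were detected per array, and the lower limit of detection on the log2 scale (the dimmest probe called) was 5.18 to 5.32. Values below it carry no order. Arrays of the same group correlated at 0.965 to 0.972 in BEAS-2B and at 0.980 to 0.982 in A549. Precision is limited by having 2 arrays a group. The epithelial markers CDH1, EPCAM, KRT8 and KRT18 were detected on all 12 arrays, and CLDN7 on the 6 BEAS-2B arrays and on 0 of the A549 arrays. The surfactant genes SFTPA1 and SFTPC, which define alveolar type II cells, were detected on 0 arrays, as were FOXJ1 of ciliated cells, NGFR of basal cells, PTPRC of leukocytes and the 4 endothelial markers. Other members of these lists, apart from the endothelial one, were detected. The type II marker LAMP3 was seen on the 6 BEAS-2B arrays and ABCA3 on the 6 A549 arrays. CAPS (ciliated), DLK2 (basal), and CD68 and CD14 (leukocyte) were detected on all 12.

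The promoters of 33 of the 49 keratin genes are in the RefSeq promoter table (build GRCh38.p14, 250 bases before to 50 bases after the start). KRT23, KRT6C and KRT16 have no entry there. The 3 sequences below belong to genes whose values are described in what follows: KRT5 and KRT24, which separated the lines, and KRT34, which was among the 3 keratins with the highest changes in dust-treated BEAS-2B cells. They read 5′ to 3′ on the gene's strand. Capitals mark TATAAA, the core of the TATA box. KRT5 lies at chr12:52520345-52520644, KRT24 at chr17:40703703-40704002 and KRT34 at chr17:41382257-41382556, all on the minus strand.
KRT5: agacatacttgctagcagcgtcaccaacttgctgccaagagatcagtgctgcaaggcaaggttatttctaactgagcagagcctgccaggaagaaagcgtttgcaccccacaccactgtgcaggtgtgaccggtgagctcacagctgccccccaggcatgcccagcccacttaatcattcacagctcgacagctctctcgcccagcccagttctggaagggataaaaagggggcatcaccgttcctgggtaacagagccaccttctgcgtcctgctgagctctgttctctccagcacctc
KRT24: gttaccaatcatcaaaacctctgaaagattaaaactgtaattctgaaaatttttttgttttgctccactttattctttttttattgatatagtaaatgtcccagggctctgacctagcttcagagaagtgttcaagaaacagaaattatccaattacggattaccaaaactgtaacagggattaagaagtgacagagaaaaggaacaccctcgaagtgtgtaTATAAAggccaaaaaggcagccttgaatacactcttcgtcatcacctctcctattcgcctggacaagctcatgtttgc
KRT34: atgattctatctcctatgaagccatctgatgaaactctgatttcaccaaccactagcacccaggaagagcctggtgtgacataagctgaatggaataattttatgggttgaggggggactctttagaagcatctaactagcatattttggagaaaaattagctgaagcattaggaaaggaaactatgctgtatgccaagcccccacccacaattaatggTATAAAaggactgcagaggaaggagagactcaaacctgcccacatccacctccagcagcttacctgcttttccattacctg

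TATAAA was found in KRT24, with its first base at -28 from the start, and in KRT34, at -31, and not in KRT5. Searched on both strands, it was present in 19 of the 33 keratin promoters, against 12% of 27305 promoters in the table. In 15 of the 33 its first base lay 27 to 31 bases before the start, a window set after the positions were seen. TGANTCA, the motif bound by AP-1, was in 0 of the 33 keratin promoters and in 7.76% of all promoters. A match is a description of the letters in this window only.

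Most of the family was not seen in either line. No array detected 26 of the 49 genes, among them KRT1 and KRT2 of the epidermis, KRT13 of non-keratinising stratified epithelium, KRT20 of the gut and most hair keratins. At a detection p-value under 0.01 the number was 34. At least 1 BEAS-2B array detected 19 genes (13 at 0.01), and at least 1 A549 array detected 15 (9 at 0.01). All 6 BEAS-2B arrays detected 9 genes, KRT5, KRT6C, KRT7, KRT8, KRT10, KRT16, KRT18, KRT19 and KRT80, and all 6 A549 arrays detected 7, KRT7, KRT8, KRT10, KRT18, KRT19, KRT24 and KRT80. These 9 and 7 were also the numbers at 0.01. The 6 genes common to both were the simple-epithelial keratins KRT7, KRT8, KRT18 and KRT19 with KRT10, a keratin of the suprabasal epidermis, and KRT80.

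**Figure D1:**
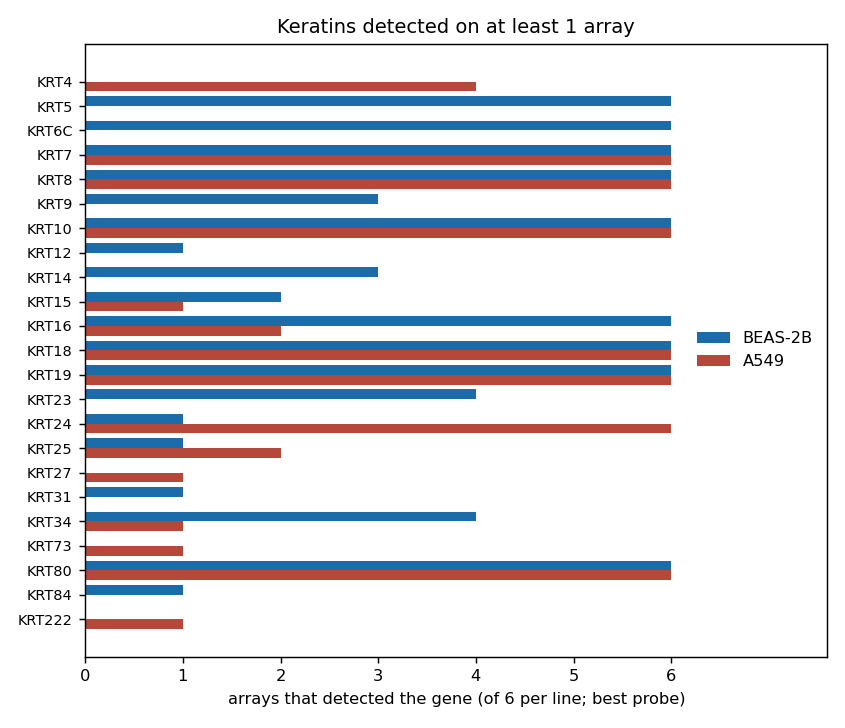
Number of arrays (x axis, 0 to 6 per line) on which each of the 23 keratin genes detected at least once had a detection p-value under 0.05, in BEAS-2B (upper bar of each pair) and A549 (lower bar), by the gene's best probe. KRT5 and KRT6C reach 6 in BEAS-2B and 0 in A549, and KRT24 reaches 6 in A549 and 1 in BEAS-2B.

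The tests below cover the 17 keratins with a probe detected on at least 2 of the 12 arrays, each by its brightest such probe. The other 32 were detected on 0 arrays or 1 (6 genes: KRT12, KRT27, KRT31, KRT73, KRT84 and KRT222). Several of the 17 passed this filter only through BEAS-2B arrays (KRT5, KRT6C, KRT9, KRT14, KRT23 and the KRT16 probe used). KRT23 did so only through the 4 dust-treated BEAS-2B arrays, where it is high, and KRT4 passed only through A549 arrays. KRT15 and KRT34 reached 2 arrays only in BEAS-2B, and KRT24 and KRT25 only in A549. Counts over the 17 are therefore given as descriptions.

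In dust-treated BEAS-2B cells, KRT23 rose. KRT23 is a type I keratin first described in pancreatic cancer cells. Its log2 levels in BEAS-2B were 4.68 and 5.19 in controls, 6.17 and 6.29 at 1 h, and 7.84 and 8.63 at 6 h. Both controls were below detection, with detection p-values of 0.481 and 0.061, and all 4 dust-treated arrays detected the probe. The 3 groups did not overlap, and the same order held within the arrays numbered 1 and within those numbered 2. The 6 A549 arrays read 4.48 to 4.75, and 0 of them detected KRT23. The probe was read from 13 to 35 beads per array.

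At 6 h the BEAS-2B mean was 8.23 ± 0.56 in dust-treated cells and 4.94 ± 0.36 in controls (SD, n = 2 each). The log2 change was 3.30 (SE 0.27, 95% interval 2.70 to 3.90; limma, adjusted p = 0.00133), and 0.000237 with the array number as a block. Since neither control detected it, the fold is a lower bound, at least 7.94-fold higher in dust-treated cells (against the dimmest detected probe or the control's own signal, whichever was higher). This bound and those below hold for the background-corrected values: without background correction the change was 2.09 (adjusted p = 0.00363), and with an offset of 50 it was 2.37 (0.00187). The change was 3.16 on the arrays numbered 1 and 3.44 on those numbered 2. KRT23 was the 1 keratin of 17 to pass in this comparison, where 0.0648% of all 20060 features passed, and 4 of the 17 had an unadjusted p under 0.05. With the BEAS-2B arrays fitted alone, its adjusted p was 0.255.

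At 1 h the change of KRT23 was 1.30 (SE 0.27; limma, adjusted p = 0.211), at least 1.99-fold, and it passed with the array number as a block (adjusted p = 0.0162). It was 0.67 without background correction and also with the authors' processed values, and 0.75 with an offset of 50. Without the block 0 of 17 keratins passed at 1 h, where 0.125% of all features passed, and 1 had an unadjusted p under 0.05. With the block the count was 1, against 0.538% of all features. Between the dust times KRT23 was 2.00 higher at 6 h than at 1 h (SE 0.27; limma, adjusted p = 0.0327; 0.00299 with the block), the 1 keratin to pass where 0.0598% of features did (0.673% with the block). That last call held in 2 of the 12 fits that left out 1 array, those without either BEAS-2B control, and in the other 10 the adjusted p was above 0.05 and reached 0.304.

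**Figure D2:**
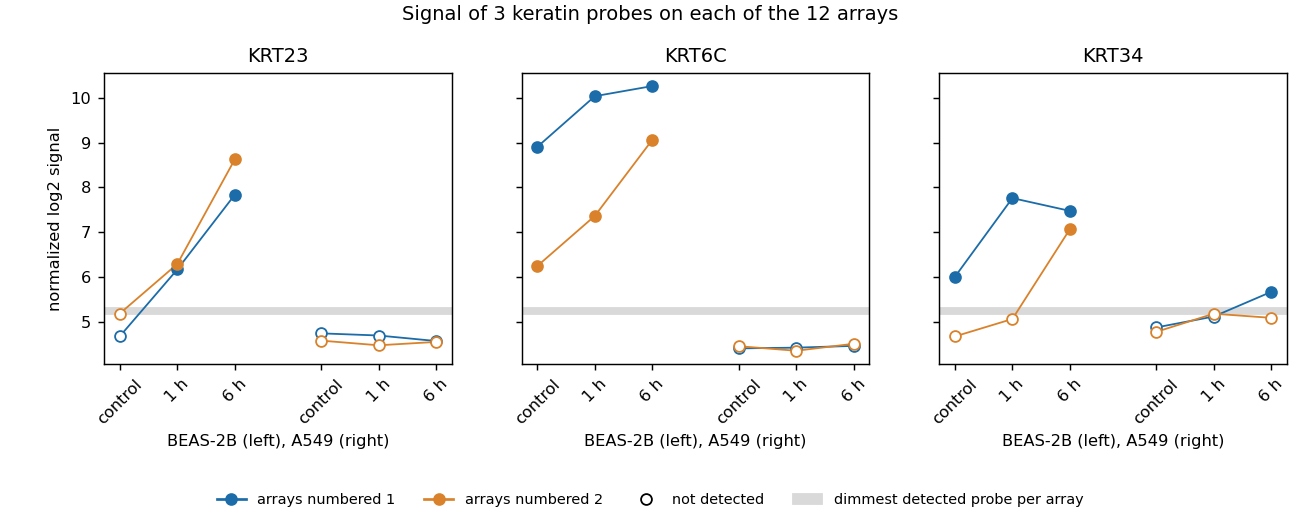
Normalized log2 signal (y axis) of the KRT23, KRT6C and KRT34 probes on each of the 12 arrays, in BEAS-2B (left in each panel) and A549 (right) for control, 1 h and 6 h of dust extract; lines join arrays of the same number, open circles were not detected, and the grey band is the dimmest detected probe per array. KRT23 lies at 7.84 and 8.63 in BEAS-2B at 6 h, while KRT6C and KRT34 in BEAS-2B lie higher on the arrays numbered 1 than on those numbered 2 in all 3 conditions.

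In A549 no keratin passed at either time, where 0.0897% of features passed at 1 h and 0.00499% at 6 h. Of the 17 keratins, 0 had an unadjusted p under 0.05 at either time, and 0 passed with the block (0.349% of features at 1 h and 0.279% at 6 h). Between 1 h and 6 h in A549 the count was again 0, with and without the block (0.0349% of features without it and 0.234% with it), and 0 keratins had an unadjusted p under 0.05. Keratin changes in A549 ran from -0.08 to 0.43 at 1 h and from -0.10 to 0.55 at 6 h. However, KRT5, KRT6C, KRT9, KRT14, KRT23 and the KRT16 probe used were detected on 0 of 6 A549 arrays. Their A549 changes compare values below detection, so their missing calls there say little. The same limit holds for the A549 side of the KRT23 differences between lines below. KRT23 changed by -0.10 at 6 h (SE 0.27; limma, adjusted p = 1.00). The change at 6 h was 3.40 higher in BEAS-2B than in A549 (SE 0.38, 95% interval 2.55 to 4.24; limma, adjusted p = 0.0299; 0.00451 with the block), where 0.00997% of features passed. This difference held in 2 of the 12 fits that left out 1 array, those without BEAS-2B 6 h array 1 or BEAS-2B control array 2. At 1 h the difference between lines was 1.37 (SE 0.38; limma, adjusted p = 1.00; 0.303 with the block), with 0 of 17 keratins and 0% of features passing (0 and 0.0399% with the block) and 1 keratin at an unadjusted p under 0.05.

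KRT6C and KRT34 had the next highest changes in BEAS-2B at 6 h. KRT6C is one of the near-identical KRT6 isoforms of stressed epithelium, and its probe may also bind KRT6A and KRT6B transcripts, so the isoform is uncertain. Its BEAS-2B levels were 8.91 and 6.25 in controls, 10.03 and 7.37 at 1 h, and 10.26 and 9.06 at 6 h. The 6 h arrays were both above the controls, and the 2 controls differed by more than the 2 arrays at 6 h. On the 6 A549 arrays KRT6C read 4.36 to 4.52 and was not detected.

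The 6 h change of KRT6C was 2.09 (SE 0.87; limma, adjusted p = 0.798), and it passed with the array number as a block (adjusted p = 0.0246), where the keratin count was 2 of 17 and 0.568% of all features passed. It was 1.36 on the arrays numbered 1 and 2.81 on those numbered 2. Without BEAS-2B control array 2 the change was 0.76, and without BEAS-2B control array 1 it was 3.41 (limma, adjusted p = 0.972 and 0.401, without the block). Its 1 h change was 1.12 (limma, adjusted p = 1.00; 0.256 with the block).

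KRT34, a type I hair keratin, read 6.01 and 4.68 in BEAS-2B controls, 7.76 and 5.07 at 1 h, and 7.48 and 7.07 at 6 h. The arrays overlapped between control and 1 h and not between control and 6 h. Its change was 1.07 at 1 h and 1.93 at 6 h (SE 0.69 for each; limma, adjusted p = 1.00 and 0.720; 0.509 and 0.0882 with the block). In A549 it read 4.78 to 5.67 and 1 array of 6 detected it. The other 14 keratins changed by less than 1 in either direction at both times in BEAS-2B, and 0 of them passed. KRT80 had the highest of these at 1 h, 0.70, and was 0.91 lower at 6 h than at 1 h (SE 0.33; limma, adjusted p = 0.693). A second KRT80 probe, tested in a fit of all probes, changed by 0.34 at 1 h. Its change from 1 h to 6 h was -0.06 (limma, adjusted p = 0.997). KRT5 changed by -0.04 at 6 h (95% interval -0.82 to 0.74), KRT8 by 0.06 (-0.70 to 0.82) and KRT18 by 0.16 (-0.39 to 0.72). The median change of the 17 keratins at 6 h was 0.16, against -0.02 over all features.

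**Figure D3:**
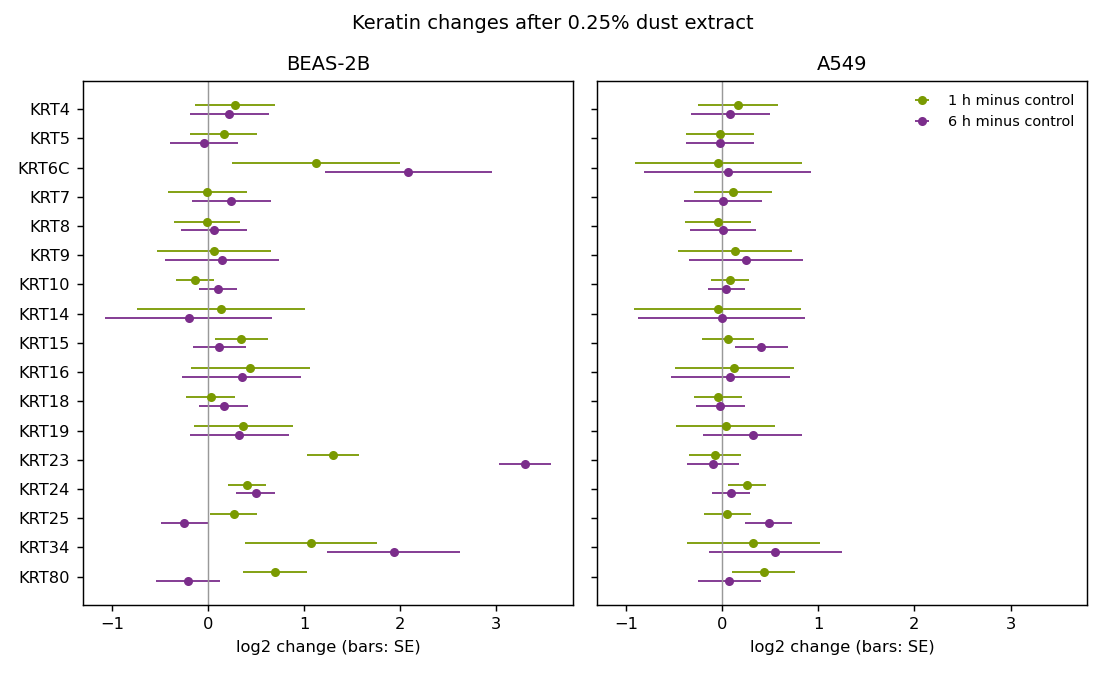
Log2 change from control (x axis) of the 17 tested keratins after 1 h and 6 h of 0.25% dust extract in BEAS-2B (left) and A549 (right); points are limma estimates from 2 arrays per group and bars are their SE. KRT23 at 6 h in BEAS-2B stands at 3.30, followed by KRT6C at 2.09 and KRT34 at 1.93 with wider bars.

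The sums of some marker lists moved with the 6 h group in BEAS-2B. The summed normalized signal (not log2) of the 5 general epithelial markers was 7412 to 7508 at 6 h and 5337 to 5437 in controls. That of the 5 airway basal markers with a probe was 512 to 562 at 6 h and 679 to 702 in controls. The members of the basal list did not fall together. On the log2 scale KRT5 changed by -0.04, KRT14 by -0.20 and KRT15 by 0.12 at 6 h, and NGFR was detected on 0 arrays. Both lists hold keratins of the family described here. The part of these lists in the KRT23 result was not tested.

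The untreated lines differed in which keratins they carried. KRT5, KRT6C and KRT16 were higher in BEAS-2B, and KRT8, KRT10, KRT18 and KRT24 were higher in A549. These 7 of 17 keratins passed, where 22.3% of all features passed. With the array number as a block, here an effect shared by both lines, 8 passed (26% of features). The added one was KRT4, a keratin of non-keratinising stratified epithelium, with a change of -1.16 (limma, adjusted p = 0.0702; 0.0213 with the block). KRT4 was detected on 1 of the 2 A549 controls and on 0 BEAS-2B arrays, and was at least 1.37-fold lower in BEAS-2B.

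KRT16, the type I partner of the KRT6 isoforms, read 11.14 and 8.85 in BEAS-2B controls, against 4.35 and 4.37 in A549 controls. The groups were far apart on the probe used, and neither A549 control detected KRT16 with that probe. It was 5.63 higher in BEAS-2B (SE 0.62; limma, adjusted p = 9.74e-05), at least 27.4-fold. A second KRT16 probe, dimmer in BEAS-2B and tested in a fit of all probes, showed a difference of 0.27 (limma, adjusted p = 0.564), so the probes of this gene disagree. That second probe was detected on 1 of the 2 A549 controls, so the bound of 27.4-fold holds for the probe used only. Whether either probe also binds transcripts of other keratins could not be checked. With the mean of both probes the difference was 2.95 (limma, adjusted p = 0.000284).

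KRT5, the type II keratin of basal cells, read 8.07 and 7.09 in BEAS-2B controls, against 4.45 and 4.45 in A549 controls. It was 3.13 higher (SE 0.35; limma, adjusted p = 0.000112), at least 5.14-fold. The difference was 2.05 without background correction and 2.02 with an offset of 50, and it passed in both. Over all conditions it lay between 7.09 and 8.08 on the 6 BEAS-2B arrays. KRT14, its usual partner, read 7.04 and 4.54 in BEAS-2B controls, against 4.65 and 4.43 in A549 controls, where neither detected it. Its difference of 1.25 did not pass (SE 0.87; limma, adjusted p = 0.358).

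KRT6C was 3.14 higher in BEAS-2B (SE 0.87; limma, adjusted p = 0.0246), at least 5.13-fold. That call was lost without A549 control array 1 (adjusted p = 0.106), A549 control array 2 (0.100) or BEAS-2B control array 1, when the difference was 1.81 (adjusted p = 0.186), with an offset of 50 (0.0870) and with no filter on dim probes (0.0700).

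KRT24, a type I keratin, read 4.78 and 4.73 in BEAS-2B controls, against 8.60 and 8.70 in A549 controls. Neither BEAS-2B control detected it, and it was 3.90 lower in BEAS-2B (SE 0.20; limma, adjusted p = 3.85e-07), at least 10.6-fold. The difference was -2.54 without background correction and -2.84 with an offset of 50, and it passed in both. On the 6 A549 arrays of all conditions it lay between 8.60 and 9.13.

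The simple-epithelial pair was lower in BEAS-2B than in A549. KRT8 read 10.90 and 10.25 in BEAS-2B controls, against 12.92 and 12.22 in A549 controls, a difference of -1.99 (SE 0.34; limma, adjusted p = 0.00191). KRT18 read 7.91 and 7.73 in BEAS-2B controls, against 9.89 and 9.51 in A549 controls, a difference of -1.88 (SE 0.25; limma, adjusted p = 0.000389). For neither gene did the lines overlap. A second KRT18 probe gave -0.95 (limma, adjusted p = 0.0710). KRT10 was 1.14 lower in BEAS-2B (SE 0.20; limma, adjusted p = 0.00188). KRT7, KRT19 and KRT80 had differences of -0.32, 0.11 and 0.09 and did not pass, with 95% intervals of -1.22 to 0.59, -1.03 to 1.25 and -0.64 to 0.82.

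**Figure D4:**
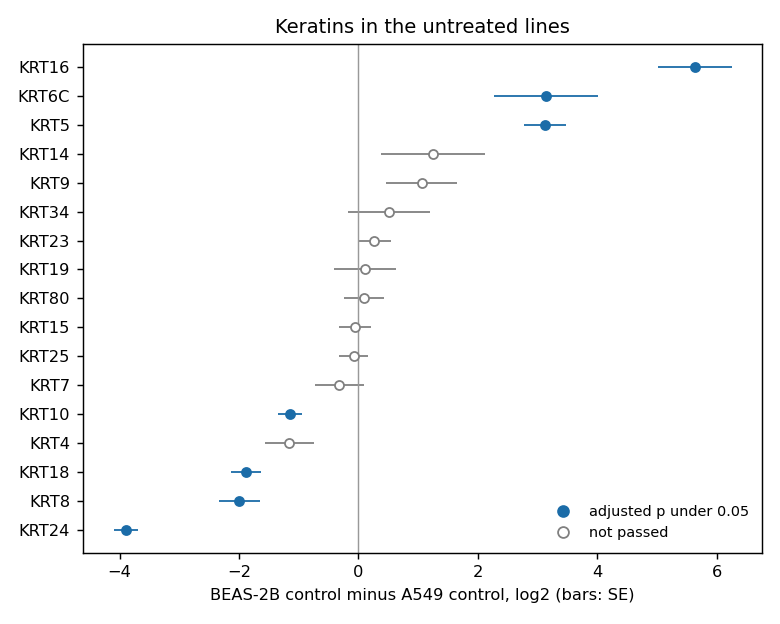
Difference in log2 level (x axis) between BEAS-2B controls and A549 controls for the 17 tested keratins, as limma estimates with SE bars from 2 arrays per line; filled points passed at an adjusted p under 0.05. KRT16 lies highest at 5.63 and KRT24 lowest at -3.90.

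Within BEAS-2B, keratin levels also differed by array number. For 7 of 17 keratins the 3 arrays numbered 1 and the 3 numbered 2 did not overlap, against 26.9% of all features, 6 of them higher in number 1. For 4 the means were also more than 1 apart (3.42% of all features): KRT14 by 2.20, KRT9 by 1.50, KRT16 by 1.48 and KRT19 by -1.05. KRT14 and KRT9 were detected on the 3 BEAS-2B arrays numbered 1 and on no other array, so they entered the 17 only through the arrays where they are high, and nothing is read from these counts against the shares of all features. KRT14 read 7.04, 7.29 and 6.28 on the arrays numbered 1 (control, 1 h and 6 h) and 4.54, 4.56 and 4.90 on those numbered 2, where it was not detected. In A549 5 of 17 keratins did not overlap between numbers (22% of features), and 0 were more than 1 apart as well (1.28% of features).

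Other cell type markers moved with the BEAS-2B numbers. The summed normalized signal (not log2) of the 7 alveolar type II markers with a probe was 1200 to 2146 on the arrays numbered 1. On those numbered 2 it was 400 to 494. Of the 7, LAMP3 was the 1 marker detected on all 6 BEAS-2B arrays, and SFTPA1 and SFTPC were detected on 0. The same sum for the 5 leukocyte markers with a probe was 683 to 859 on number 1 and 1285 to 1648 on number 2. Of these, PTPRC and CD3E were detected on 0 arrays. Their part in the keratin differences was not tested. The arrays were made from cell lines, so these sums are not read as numbers of type II cells or leukocytes. Fewer cells carrying a transcript and less of it per cell cannot be told apart.

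**Figure D5:**
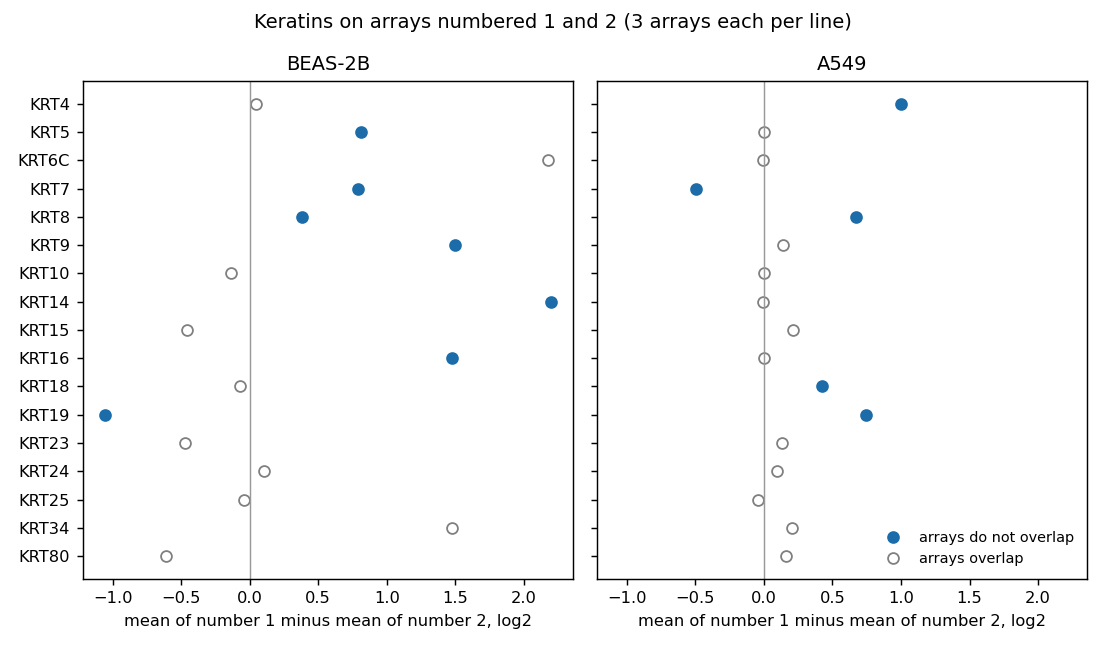
Mean log2 level of the 3 arrays numbered 1 minus that of the 3 numbered 2 (x axis) for the 17 tested keratins in BEAS-2B (left) and A549 (right); filled points are genes whose arrays do not overlap between numbers. KRT14 in BEAS-2B lies at 2.20 with its arrays apart, and KRT6C at 2.17 with its arrays overlapping.

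Genes of structures that hold keratin filaments were compared between the untreated lines, where 22.3% of all features passed, and after dust. Of the 13 measured genes of desmosomes, the junctions where keratin filaments attach, 9 were higher in BEAS-2B than in A549 and 0 lower, with a median difference of 1.41 against 0.02 over all features. The desmosomal plaque genes PPL, PKP1 and PKP3 were 2.52, 2.27 and 2.08 higher, and the desmocollin DSC3 2.21 (limma, adjusted p = 0.000653, 0.000569, 0.00148 and 1.44e-05). In each dust comparison 0 of the 13 passed, with or without the block. Of 7 measured genes that anchor basal cells to the basement membrane, LAMB3 and ITGB4 were higher in BEAS-2B, by 3.20 and 2.37 (limma, adjusted p = 0.0168 and 0.000441), and 0 passed after dust. These 2 of 7 are near the 22.3% of all features, and the median difference of the 7 was 0.13. Of 10 measured non-keratin intermediate filament genes 2 were higher in BEAS-2B (the nuclear lamins LMNB1, by 1.99, and LMNB2, by 1.17) and 5 were lower, INA by -3.07 and SYNM by -2.06 among them, and 0 passed after dust.

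Of 17 measured cornified envelope and squamous differentiation genes, 4 were higher and 2 lower in untreated BEAS-2B than in untreated A549 (22.3% of all features passed), with S100A2 at 4.95, CNFN at -3.15 and TGM2 at -2.74. After dust 0 of the 17 passed without the block. With the block 2 passed at 6 h in BEAS-2B, where 0.568% of features did, the transglutaminase TGM2 with a change of 2.51 (limma, adjusted p = 0.720; 0.00496 with the block) and the calcium-binding S100A2 with 1.47 (0.468; 0.00496 with the block).

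Of 19 measured transcription factors of epithelial and squamous keratin expression, OVOL1, a zinc finger factor of epidermal differentiation, passed at 1 h in BEAS-2B, where 0.125% of features did, with a change of 2.25 (SE 0.21; limma, adjusted p = 0.00187). It was 2.23 lower at 6 h than at 1 h (limma, adjusted p = 0.00459). Its 1 h change was 2.24 higher in BEAS-2B than in A549 (limma, adjusted p = 0.120; 0.0339 with the block). With the block 4 passed at 1 h (0.538% of features), the other 3 being ZNF750 at 2.46, ELF3 at 1.86 and FOXA1 at 1.73. At 6 h 2 passed with the block (0.568% of features), FOXA2 higher by 1.51 and OVOL2 with a change of -2.39. In A549 PRDM1 passed with the block at 1 h, where 0.349% of features did, with a change of 1.86 (limma, adjusted p = 0.737; 0.00112 with the block). In the untreated lines 3 of the 19 were higher in BEAS-2B and 4 lower (22.3% of features passed), with FOXA2 at -4.52, FOXA1 at -3.36, SNAI2 at 2.93 and OVOL2 at 2.86.

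The named non-keratin genes whose levels were most like those of KRT23 over the 12 arrays were SSUH2, PALM2, SPOCD1, COPS2 and EMG1, with Pearson's r of 0.98, 0.95, 0.94, 0.93 and 0.93. Within the 6 BEAS-2B arrays r was 0.96, 0.98, 0.91, 0.95 and 0.92. These values describe arrays that share a chip and 3 conditions in BEAS-2B. At 6 h in BEAS-2B these genes changed by 0.96, 1.48, 2.37, 0.44 and 0.44 on the log2 scale.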

How the data were processed

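The authors deposited the mean bead intensity of each probe, with no background subtracted, from GenomeStudio 2011.1 per the submitters' processing notes. That deposited table also holds bead counts and detection p-values for each probe and array. A second deposited matrix holds processed intensity values, used as an alternative. Its rank correlation with the unnormalized signal was 1 on each array. The bead standard errors were not used. From the unnormalized signals, limma 3.58.1 in R 4.3.3 computed neqc values (normexp background correction with negative controls inferred from the detection p-values, an offset of 16, quantile normalization, log2). Probes with a detection p-value under 0.05 on at least 2 of 12 arrays were kept (24467), then 1 probe per gene by highest mean, giving 20060 features. One model with 6 group means was fitted (6 residual and 4.71 prior degrees of freedom), with Benjamini-Hochberg adjustment in each of 9 comparisons and a threshold of 0.05. The spread is shared by both lines.

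The array number within a line served as a block in a second fit. For the comparison of the untreated lines the block was instead a number effect shared by both lines. The labels do not state a pairing. Deviations of same-numbered arrays correlated at 0.404 to 0.468 in A549 and 0.528 to 0.645 in BEAS-2B, and at -0.05 to 0.05 between lines. The numbers thus pair arrays within a line and not between lines. The block values for the untreated lines therefore assume a pairing that these correlations do not show. The letters in the array names run together within each line and number. Neither line nor number can thus be told apart from the place of an array in that order. A fold is a lower bound where the probe went undetected on both arrays of the dimmer group. The script was run on simulated data with less spread than these arrays and larger changes than those of the keratins after dust. That run checked the code and does not measure the power of the tests in these data. The keratins with per-array values were those that passed in a dust comparison, with or without the block, and those detected on all arrays of 1 line and on at most 1 of the other; others are given where a change exceeded 1 or a comparison turned on them. The members and gene lists were chosen with earlier results of these data known. Alternatives covered background correction, offset, normalization, the authors' values, filters, the block, each line alone and each array left out.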

Additional observations from a re-analysis of the deposited data

Results flagged for a closer look

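The change of KRT23 at 6 h differed between the lines by 3.40 on the log2 scale (limma, adjusted p = 0.0299; 0.00451 with the array number as a block). The test of the difference itself passed, with a change of 3.30 in BEAS-2B, where both dust-treated arrays exceeded both controls, and of -0.10 in A549, where 0 of 6 arrays detected the probe. The call held in 2 of 12 fits that left out 1 array, and in the other 10 the adjusted p reached 0.329. It was lost without background correction (adjusted p = 0.0980), with the authors' processed values (0.0982), with no filter on dim probes (0.142) and without the BEAS-2B arrays numbered 2 (0.0907).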

How the results depend on the processing

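Of 748 values recomputed under an alternative, 667 kept their direction and side of the threshold (or stayed within 1.5 times for counts), 32 counts moved, 34 calls were lost, 9 were gained and 6 changes turned in sign. The fits without all BEAS-2B arrays of 1 number were added after the data were seen. KRT23 at 6 h against control in BEAS-2B passed in all 12 fits that left out 1 array (2.90 to 3.69) and in 11 of 12 other settings, the exception being each line fitted alone. KRT6C at that time ran from 0.76 to 3.41 over the fits that left out 1 array.

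The keratin count at 1 h in BEAS-2B was 1 with the replicate block. At 6 h against control it was 2 with the block, 2 without the BEAS-2B arrays numbered 1, and 0 with each line fitted alone. At 6 h against 1 h it was 0 with no filter on dim probes, with each line fitted alone, and without the BEAS-2B arrays of either number, and 0 to 1 over the fits that left out 1 array. The count for the difference between lines at 6 h was 0 with quantile normalization without background correction, with the authors' processed values (KRT23 difference 2.20, adjusted p = 0.0980 and 0.0982), with no filter (0.142) and without the BEAS-2B arrays numbered 2 (0.0907), and 0 to 1 over the fits that left out 1 array. The count in the untreated lines was 6 to 7 over those fits. KRT14 and KRT9 passed there without the BEAS-2B arrays numbered 2 (2.50 and 1.77). The block changed no other keratin call than those of KRT23, KRT6C and KRT4 given above.

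Turned signs concerned changes that did not pass. KRT6C at 1 h was -0.21 without BEAS-2B 1 h array 1 and -0.20 without BEAS-2B control array 2 (up to 2.46 without another array), and KRT34 at 1 h was -0.27 without BEAS-2B 1 h array 1 (up to 2.42). At 6 h against 1 h, KRT6C was -0.37 and KRT34 -0.49 without BEAS-2B 1 h array 2 (up to 2.30 and 2.21 without another), and KRT34 was -0.29 without the BEAS-2B arrays numbered 2. Where an alternative lost a call, the cause was not tested. Signal over background limits KRT23, KRT4, KRT9, KRT14, KRT15, KRT25 and KRT34, which lie near the dimmest detected probe in at least 1 group. It also limits the size of the line differences of KRT5, KRT6C, KRT16 and KRT24. KRT5, KRT6C and the KRT16 probe used were below detection on all A549 arrays, and KRT24 on both BEAS-2B controls.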
